A study of Mus musculus with 14 samples.

Results

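The interferon response genes examined here are 38 genes that cells switch on when an interferon binds its receptor. They were chosen by name with earlier results of these data known, so shares of all genes set beside them are no independent test. All 38 were found among the 50600 genes of the bulk table. Of these, 37 were in the stromal single-cell tables of 32285 genes, which lack a row for Mx1, and 36 were in the progenitor single-cell table of 11992 genes, which lacks rows for Gbp6 and Cxcl9. By role they comprised 6 Ifit, Oas and Mx genes, 12 other genes inducible by type I interferon, 4 transcription factors, 5 immunity-related GTPases, 6 guanylate-binding proteins, 2 chemokines and 3 genes of antigen processing. The 6 Ifit, Oas and Mx genes are called the type I set below, and the immunity-related GTPases, guanylate-binding proteins, Cxcl9 and Cxcl10 together are called the type II set, with 13 genes.

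Type I interferons act through the receptor chains Ifnar1 and Ifnar2 and a complex that includes Stat2 and Irf9 and binds the interferon-stimulated response element. Type II interferon, or interferon gamma, acts through Ifngr1 and Ifngr2 and through the gamma-activated site, and it induces Irf1, itself a factor that binds response elements. The target genes overlap widely, so the names of the sets give the better known inducer and not an exclusive one. In the marrow, interferons are known to act on blood stem cells and on the stroma that houses them.

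The study compared marrow cells of tumour-free and breast tumour-bearing mice in 14 samples. Mesenchymal stem cells (MSC) were profiled in bulk in 4 tumour-free libraries and 4 libraries from tumour-bearing mice, whose titles name Py230, a mammary tumour line derived from a PyMT mouse. In PyMT mice the polyoma middle T oncogene drives tumours of the mammary epithelium. Stromal cells were profiled singly in 1 wild-type (WT) and 1 PyMT library, and hematopoietic stem and progenitor cells (HSPC) in 2 WT and 2 PyMT libraries. The labels give bone marrow as the tissue throughout, without strain, age, tumour stage, sort gates or pooling of animals. Every HSPC title begins with PyMT, so genotype was read from its own label. The labels tie no bulk library to an animal, and the spread behind the p-values may therefore be technical.

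Bulk libraries held 4301375 to 9811251 counted reads, HSPC libraries 16365550 to 28570481 unique molecular identifiers (UMIs), and the kept stromal cells 10222176 UMIs in WT and 15542745 in PyMT. All 7 markers of LepR+ mesenchymal cells were detected in each bulk library, with sums of 27350 to 31630 CPM (counts scaled by the library total) in tumour-free and 14650 to 19750 CPM in Py230 libraries. Summed monocyte and macrophage markers were 56.0 to 69.5 CPM against 79.9 to 115.3 CPM, and summed T and NK cell markers 0.868 to 4.57 CPM against 0 to 8.76 CPM. Summed fibroblast markers were 790.1 to 942.8 CPM against 1010 to 1310 CPM, and sinusoidal endothelial markers 37.1 to 45.9 CPM against 58.9 to 92.5 CPM. Tendon-like markers were 16.2 to 83.2 CPM against 80.4 to 300.5 CPM. The part of these shifts in the results was not tested, and in bulk samples fewer cells of a type and less RNA per cell cannot be told apart. The WT and PyMT stromal libraries shared 2 cell barcodes, and pairs of HSPC libraries shared 8 to 23.

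The stretches below show what lies just upstream of genes called lower in the bulk results, and of Irgm2, which did not pass the test. RefSeq promoter windows on GRCm38.p6, from 250 bases before to 50 bases after the start, were found for 29 of the 38 genes, and every window of a gene was searched. The response element was searched as GAAANNGAAA, which reads TTTCNNTTTC on the other strand, and the gamma-activated site as TTCNNNGAA, which reads the same on both strands. Overlapping matches were kept. Each stretch is written 5′ to 3′ along the gene, and capitals mark the matches.
Irf1 (chr11:53769909-53769947, plus strand): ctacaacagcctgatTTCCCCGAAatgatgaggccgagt
Irgm1 (chr11:48871420-48871465, minus strand): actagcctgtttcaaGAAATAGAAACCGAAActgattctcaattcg
Igtp (chr11:58199496-58199546, plus strand): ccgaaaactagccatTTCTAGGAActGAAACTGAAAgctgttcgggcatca
Irgm2 (chr11:58214887-58214937, plus strand): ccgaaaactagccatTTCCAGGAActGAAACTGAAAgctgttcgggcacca
Cxcl10 (chr5:92349078-92349117, minus strand): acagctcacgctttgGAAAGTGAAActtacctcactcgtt
Irf1 carried a gamma-activated site and no response element, Irgm1 and Cxcl10 carried response elements and no gamma-activated site, and Igtp and Irgm2 carried both motifs in nearly the same stretch of letters. The windows of Ifi47 and Cxcl9 held neither motif, and no window was found for Iigp1.

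For contrast, the stretches of a gene of the type I set and of Isg15 carried response elements only.
Ifit1 (chr19:34640770-34640828, plus strand): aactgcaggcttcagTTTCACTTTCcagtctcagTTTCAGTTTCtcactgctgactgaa
Isg15 (chr4:156200860-156200911, minus strand): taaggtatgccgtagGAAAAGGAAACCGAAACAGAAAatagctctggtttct
The response element was in the windows of 16 of 29 members (55.2%), against 1079 of 27025 genes (3.99%). The gamma-activated site was in 10 of 29 members (34.5%), against 2582 genes (9.55%). The motifs did not part the sets: the response element was in 3 of 5 windows of the type I set and in 8 of 10 of the type II set, and the gamma-activated site in 2 of 5 and 4 of 10. A match is a run of letters in a window and not proof of a site.

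In bulk MSC, Irf1 and 5 genes of the type II set were lower with a Py230 tumour, and no gene of the type I set passed the test. Of 37 interferon genes tested, 6 were lower and 0 were higher (edgeR quasi-likelihood test, Benjamini-Hochberg adjusted p under 0.05 over 16317 genes), whereas 2.74% of all genes tested were lower and 1.99% were higher. At an unadjusted p under 0.05, 15 were lower and 0 higher, and DESeq2 called 7 lower and 0 higher. No share of all genes is set beside these further counts, so they are not read against a background. The 6 were Irf1, the GTPases Irgm1, Iigp1, Igtp and Ifi47, and the chemokine Cxcl10. The median log2 change was -0.32 over the 37 members and 0.04 over all genes. In the type II set 5 of 13 were called, all 13 changes were below 0 and the median was -0.99. In the type I set 0 of 6 were called, 4 were below 0 and the median was -0.22. The difference between the sets was not tested.

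Irf1, an interferon-induced transcription factor, had 1539, 1243, 1301 and 1235 CPM in the tumour-free libraries and 345.8, 587.8, 722.8 and 501.1 CPM in the Py230 libraries. The groups did not overlap, and the mean went from 1330 ± 142.5 to 539.4 ± 158.0 CPM (SD, n = 4 each). The log2 change was -1.29 with an SE of 0.17 (edgeR adjusted p = 0.0013). The other 3 factors did not pass: Irf7, Irf9 and Stat2 overlapped between groups, with means of 93.6 and 88.8 CPM for Irf7, 84.7 and 89.8 CPM for Irf9, and 157.0 and 131.3 CPM for Stat2, tumour-free first.

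The immunity-related GTPases coat the vacuoles of intracellular microbes. Iigp1 stood at 1246, 1173, 1443 and 578.3 CPM in tumour-free MSC and at 145.3, 416.3, 364.6 and 260.8 CPM with Py230 tumours. All Py230 libraries were below all tumour-free ones, and the log2 change was -1.89 ± 0.38 (SE; edgeR adjusted p = 0.0336). Irgm1, a regulator of the other GTPases, had 212.1, 224.6, 214.4 and 87.8 CPM against 34.0, 62.2, 49.6 and 47.1 CPM. Again the groups did not overlap, although the fourth tumour-free library lay far below the other 3 (log2 change -1.91 ± 0.31 SE, edgeR adjusted p = 0.0099).

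Igtp had 43.0, 37.6, 62.0 and 27.5 CPM in tumour-free and 9.81, 23.7, 13.9 and 17.5 CPM in Py230 libraries, with no overlap (log2 change -1.36 ± 0.29 SE, edgeR adjusted p = 0.0230). Ifi47 had 76.5, 49.0, 88.3 and 42.4 CPM against 25.9, 42.9, 31.1 and 26.3 CPM. Its groups overlapped by the second Py230 library, and the log2 change was -0.99 ± 0.24 (SE; edgeR adjusted p = 0.0448). Irgm2 did not pass (log2 change -0.77, edgeR adjusted p = 0.0843), although its groups of 82.4 to 159.3 and 47.0 to 79.0 CPM did not overlap. Igtp, Irgm2 and other members of these GTPase, Gbp and Oas families have close copies, and how reads shared between copies were counted is not given, so the split of reads between them is uncertain.

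Cxcl9 and Cxcl10 are ligands of Cxcr3, the receptor that draws activated T cells. Cxcl10 had 331.3, 277.7, 216.3 and 130.9 CPM in tumour-free and 19.4, 75.3, 50.6 and 50.6 CPM in Py230 libraries. The groups did not overlap, and the log2 change of -2.26 ± 0.43 (SE; edgeR adjusted p = 0.0329) was the lowest among the members tested. Cxcl9 had 197.6, 174.8, 336.9 and 114.5 CPM against 15.03, 119.7, 72.8 and 64.0 CPM. The second Py230 library reached into the tumour-free range, and Cxcl9 did not pass (log2 change -1.58 ± 0.60 SE, edgeR adjusted p = 0.265).

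The guanylate-binding proteins, GTPases of cell-autonomous defence, all had log2 changes below 0, and 0 of 6 passed (median -0.44). Gbp2, the most abundant of them per kilobase of transcript, had 218.3, 207.3, 442.0 and 169.9 CPM in tumour-free and 82.3, 188.8, 149.0 and 155.3 CPM in Py230 libraries. The third tumour-free library was the highest, and the groups overlapped. Gbp4, the least abundant, had 8.18, 7.03, 21.5 and 5.78 CPM against 4.18, 13.7, 8.13 and 7.45 CPM. Of the antigen-processing genes, the immunoproteasome subunits Psmb8 and Psmb9 and the peptide transporter subunit Tap1, 0 of 3 passed (median log2 change -0.40). Tap1 had 87.6, 81.0, 124.9 and 68.4 CPM against 54.7, 85.6, 70.2 and 59.6 CPM, and Psmb9 had 11.4 to 30.1 CPM in tumour-free and 7.49 to 14.0 CPM in Py230 libraries, so that both genes overlapped between groups.

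In the type I set, Ifit1, which binds foreign RNA ends, had 104.3, 76.0, 59.2 and 24.0 CPM in tumour-free and 16.5, 48.0, 23.4 and 22.8 CPM in Py230 libraries. The fourth tumour-free library lay inside the Py230 range, and Ifit1 did not pass (log2 change -1.21, edgeR adjusted p = 0.294). Mx1, a dynamin-like antiviral GTPase and the least abundant of the set, had 8.97, 7.03, 10.3 and 2.46 CPM against 7.73, 12.5, 8.13 and 7.45 CPM. The other 12 type I inducible genes included 11 that could be tested, and 0 of these passed (median log2 change 0.04). Bst2, the tetherin of budding viruses and the most abundant of them per kilobase, had 49.5, 48.7, 25.8 and 20.1 CPM against 12.1, 31.3, 27.8 and 17.5 CPM. Ifi27l2a was too low for a test, at 0.145 to 0.923 CPM against 0 to 2.97 CPM.

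Per kilobase of transcript, Irf1 was the most abundant member in tumour-free MSC, at a mean of 334.4 CPM per kilobase, and it had 135.7 with Py230 tumours. Iigp1 followed at 190.6 and 51.0 CPM per kilobase, then Cxcl10 at 106.2 and 21.7 and Gbp2 at 103.1 and 57.2. Ifit1, at 24.8 and 10.4 CPM per kilobase, was the most abundant of the type I set.

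**Figure D1:**
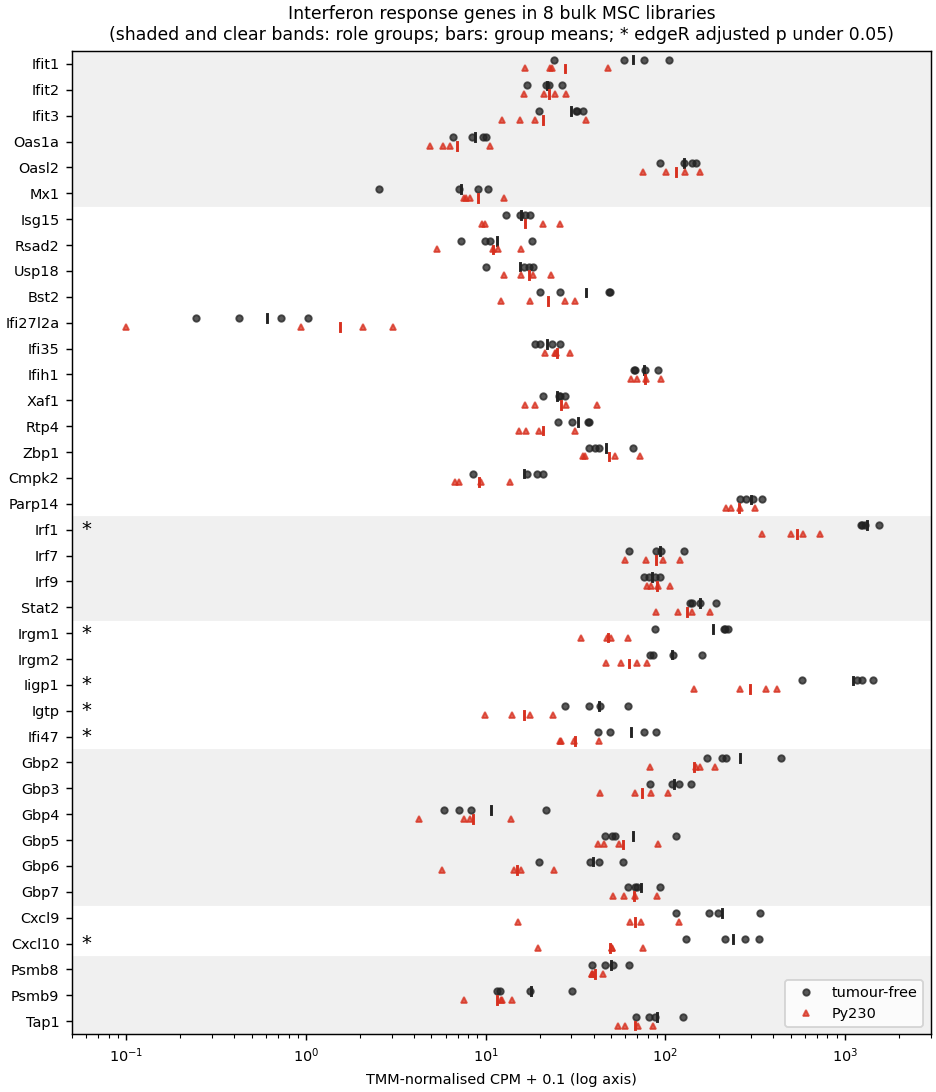
Each row is an interferon response gene and each point a bulk MSC library, placed by its TMM-normalised CPM plus 0.1 on a log axis; circles are the 4 tumour-free and triangles the 4 Py230 libraries, bars are group means, and asterisks mark an edgeR adjusted p under 0.05. The 4 Py230 libraries lie below the 4 tumour-free ones for Irf1, Irgm1, Irgm2, Iigp1, Igtp and Cxcl10.

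The ranges of the groups did not overlap, with Py230 lower, in 6 of 37 members, against 5.84% of all genes, and with Py230 higher in 0 members, against 4.83% of all genes. Libraries differed across nearly all members at once. The fourth tumour-free library was the lowest of its group in 34 of 37 members and the third the highest in 25, while the second Py230 library was the highest of its group in 35 and the first the lowest in 22. The mean log2(CPM + 1) of the type II set was 6.73, 6.58, 7.22 and 6.08 in tumour-free and 4.82, 6.16, 5.68 and 5.53 in Py230 libraries, overlapping through the second Py230 library. That of the type I set was 5.08, 4.84, 4.96 and 4.07 against 4.09, 5.04, 4.35 and 4.24.

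The number of members called changed when single libraries were left out. Fewer of all genes were also called lower in each of these fits than in the fit of all libraries. The counts therefore do not show a dependence particular to the members. It was 1, 3, 3 and 8 without tumour-free libraries 1 to 4 and 5, 8, 1 and 2 without Py230 libraries 1 to 4, each in turn, and Irf1 was called in all 8 of these fits.

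Of 92 other genes of the pathway, 71 could be tested in MSC, and 4 were lower and 1 higher. Socs1 and Socs3, feedback inhibitors of cytokine receptors, were both lower. Socs1 had 134.4, 95.4, 98.3 and 85.2 CPM against 34.9, 49.8, 64.3 and 39.9 CPM (log2 change -1.10, edgeR adjusted p = 0.0039), with no overlap. Myd88, an adaptor of Toll-like receptors, and Gm12250, a GTPase gene, were also lower, with log2 changes of -0.47 and -1.27, and Ifi207 was higher at 1.11. The receptors (5 tested) and signal transducers (10 tested) had 0 called, and none of the 9 ligand genes was high enough to be tested.

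In HSPC a different picture held, with 1 member higher in PyMT mice and the others not called. Of 36 members tested, 0 were lower and 1 was higher, against 0.553% lower and 0.850% higher of 11759 genes. At an unadjusted p under 0.05, 1 was lower and 9 higher, and DESeq2 called 4 higher, again without a share of all genes beside these counts. The median log2 change was 0.23, against -0.01 over all genes, and 28 of 36 changes were above 0. The type I set had 0 of 6 called and a median of 0.46, and the type II set 1 of 11 and a median of 0.08.

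The member called was Igtp, at 31.9 and 33.7 CPM in the WT mice and 45.4 and 48.6 CPM in the PyMT mice (log2 change 0.52 ± 0.10 SE, edgeR adjusted p = 0.0452). Both PyMT mice were above both WT mice, the opposite of the direction in MSC. The call was lost without either WT mouse, with edgeR adjusted p of 0.0972 without the first and 0.0770 without the second; the lone WT mouse is then assumed to vary like the PyMT mice. Psmb8 had 1066 and 954.4 CPM against 1492 and 1348 CPM and did not pass (log2 change 0.49, edgeR adjusted p = 0.0656). Irf1, at 34.7 and 39.1 against 46.4 and 34.0 CPM, overlapped between genotypes, as did Iigp1 at 8.19 and 12.4 against 8.29 and 13.2 CPM. Cxcl10 was rare at 0.536 and 0.230 against 1.004 and 2.26 CPM.

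The second PyMT mouse had the higher value of its pair in 26 of 36 members. Ifit1, for example, had 8.38 and 7.09 CPM in WT and 8.29 and 15.9 CPM in PyMT mice, so that only the second PyMT mouse stood above WT. Without the first PyMT mouse 12 members were called higher, against 6.03% of all genes. Without the second 7 were called higher and 2 lower (Gbp2 and Ifih1), against 9.54% and 6.70% of all genes. The ranges did not overlap in 11 members with PyMT higher, against 26.7% of all genes, and in 3 with PyMT lower, against 29.2%.

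Of the 92 other pathway genes, 68 were tested in HSPC, 4 were higher and 0 lower. Socs3 had 10.4 and 7.603 CPM in WT and 61.6 and 51.9 CPM in PyMT mice (log2 change 2.64, edgeR adjusted p = 0.00054), and Socs1 had 7.12 and 8.41 against 17.3 and 18.7 CPM (log2 change 1.22, edgeR adjusted p = 0.0130). Both inhibitors were lower in tumour-bearing MSC and higher in PyMT HSPC. Psme2, a proteasome activator subunit, and Ccl5, a chemokine, were also higher, with log2 changes of 0.53 and 0.90.

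**Figure D2:**
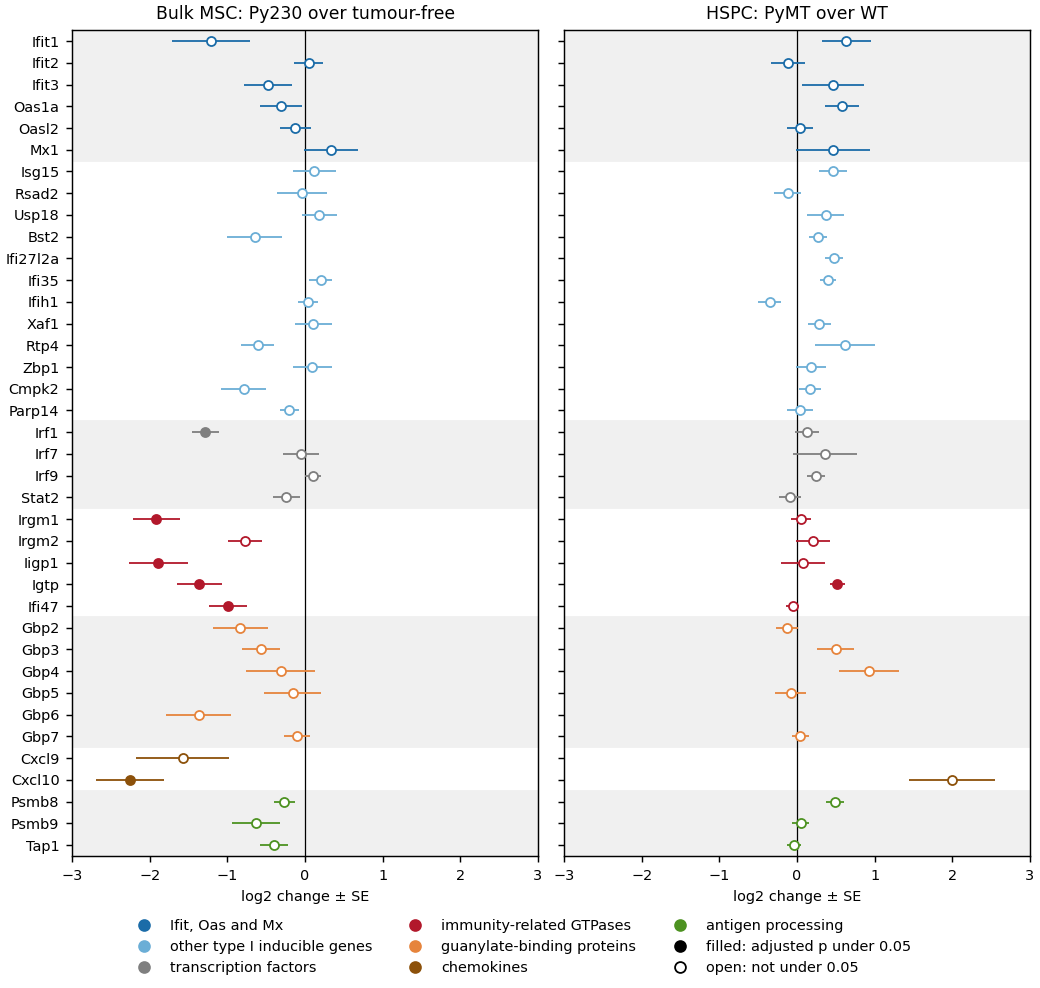
Points are log2 changes of each member with their SE, from bulk MSC (Py230 over tumour-free) on the left and HSPC (PyMT over WT) on the right; colours give the role and filled points an edgeR adjusted p under 0.05. The type II GTPases and chemokines lie left of 0 in MSC, with 5 of 13 filled, while Igtp is the filled point in HSPC.

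The largest stromal cluster was of LepR+ mesenchymal-like cells, led by Hp, Grem1, Adipoq and Cxcl12, with 977 WT and 2242 PyMT cells. The other clusters with at least 100 cells in each library were led by Fmod and Chad (441 and 367 cells, cluster 1) or were fibroblast-like, led by Dpt and Pi16 (559 and 346 cells, cluster 2). With 1 library per genotype no test was possible. Ratios carry 95% exact Poisson intervals, which cover counting error only, and members with at least 20 UMIs over both libraries of a cluster were counted.

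In LepR+ mesenchymal-like cells 9 of 35 members were more than 1.5-fold lower in PyMT and 1 was higher, against 7.43% lower and 12.1% higher of all genes. The median log2 ratio was -0.16, against 0.08 for all genes. Of the type II set 4 of 12 were past this fold, all lower (median -0.51), and of the type I set 2 of 4 were lower and 1 higher (median -0.51).

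Iigp1 went from 928.8 CPM in WT to 473.5 CPM in PyMT (log2 ratio -0.97, interval -1.03 to -0.91). Cxcl10 went from 402.6 to 192.2 CPM (-1.07, interval -1.16 to -0.97) and Cxcl9 from 289.4 to 119.7 CPM (-1.27, interval -1.39 to -1.16). The bulk log2 changes of these 3 genes, with Py230 tumours, were also below 0. Gbp6 went from 23.2 to 14.4 CPM (-0.69) and Psmb9 from 84.8 to 47.3 CPM (-0.84).

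Irf1, the member with the lowest adjusted p in bulk MSC, differed little here, at 503.3 and 453.6 CPM (log2 ratio -0.15, interval -0.23 to -0.07). Irgm1 had 49.7 and 34.1 CPM (-0.54) and Igtp 29.4 and 21.0 CPM (-0.49), both short of 1.5-fold, while Ifi47 had 87.8 and 90.0 CPM (0.04).

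Among type I genes of these cells, Ifit1 went from 50.5 to 27.8 CPM (-0.86, interval -1.13 to -0.59) and Ifit3 from 21.3 to 10.9 CPM (-0.97). Ifi27l2a, at 5.67 and 1.43 CPM, was also lower (-1.98), and Ifit2, at 6.21 and 9.46 CPM, was the member past the fold in the other direction (0.61, interval -0.06 to 1.33). Rsad2, or viperin, had 13.8 and 5.73 CPM, but 35 of its 51 WT UMIs (68.6%) lay in 1 cell, and without the cell holding most UMIs of each gene its log2 ratio was 0.09. Without these cells 8 members were lower and 1 higher.

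In the cluster led by Fmod and Chad the members lay the other way. There, 17 of 30 members were more than 1.5-fold higher in PyMT and 0 lower, against 17.3% higher and 5.65% lower of all genes. The median log2 ratio was 0.68 against 0.16. Levels were low, and several of the 17 stood near the minimum of 20 UMIs over both libraries. Gbp3 had 4 UMIs in WT and 22 in PyMT, Oasl2 5 and 17, and Zbp1 10 and 16. Gbp6 had 10 and 13, Igtp 11 and 14, and Irf7 12 and 16, whereas Irf1 had 146 and 289. Here and in the other clusters the shares of all genes were not matched for abundance. The part of counting error in the count of 17 was not tested. Irf1 went from 66.8 to 161.0 CPM (1.27, interval 0.98 to 1.57), Ifit1 from 8.23 to 30.1 CPM (1.87), Ifit3 from 6.86 to 20.1 CPM (1.55) and Iigp1 from 8.23 to 21.2 CPM (1.36). Of the Ifit3 UMIs in PyMT, 15 of 36 lay in 1 cell, and its log2 ratio was 0.87 without the cell holding most UMIs in each library.

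Gbp3 went from 1.83 to 12.3 CPM (2.74, interval 1.19 to 4.74) and Oasl2, an oligoadenylate synthetase-like gene, from 2.29 to 9.47 CPM (2.05). Isg15, the ubiquitin-like modifier, went from 10.5 to 21.2 CPM (1.01), with 17 of 38 PyMT UMIs in 1 cell and a log2 ratio of 0.68 without the top cells. Psmb8 went from 8.69 to 18.9 CPM (1.12), Irf9 from 17.8 to 35.1 CPM (0.98) and Parp14 from 6.40 to 16.2 CPM (1.34). The other members past the fold, Zbp1, Cmpk2, Irf7, Irgm2, Igtp, Gbp6 and Tap1, had log2 ratios of 0.63 to 1.21. Without the top cells 17 members were again past the fold, 16 of them shared, with Igtp lost. With cells thinned to 1500 UMIs, 5 members that still had at least 20 UMIs were past the fold in the higher direction. Members left with fewer UMIs were not counted, so the smaller number does not show that their ratios fell.

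In fibroblast-like cells 7 of 35 members were past 1.5-fold higher and 2 lower, against 11.2% and 5.93% of all genes (median log2 ratio 0.24 against 0.08). Irf1 went from 124.2 to 208.6 CPM (0.75, interval 0.55 to 0.95), Iigp1 from 25.2 to 40.5 CPM (0.68) and Ifit1 from 28.5 to 51.6 CPM (0.85). Rsad2 went from 1.82 to 15.9 CPM (3.13), Ifit3 from 13.1 to 19.8 CPM (0.60), Zbp1 from 5.16 to 9.64 CPM (0.90) and Cxcl9 from 3.95 to 6.26 CPM (0.67). Zbp1 had 17 UMIs in WT and 20 in PyMT. Cxcl9 had 13 UMIs in each library, 7 of them in 1 cell in each. Its ratio thus came from the cluster totals, 3293739 UMIs in WT and 2075299 in PyMT. Ifi27l2a, a small interferon-inducible protein of which fibroblast-like cells held the most among these clusters, went from 234.1 to 142.1 CPM (-0.72) and Cxcl10 from 22.5 to 13.5 CPM (-0.74). Of the Cxcl10 UMIs in WT, 32 of 74 lay in 1 cell, and without the top cells its log2 ratio was -0.40 and that of Ifit3 0.43, both short of 1.5-fold.

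Genes of the dissociation stress list, known to rise when tissue is digested, were higher in PyMT in each cluster, with sums of 25950 and 47480 CPM in LepR+ cells, 9638 and 20790 in cluster 1 and 11970 and 23560 in fibroblast-like cells, WT first. LepR+ mesenchymal markers were 1020 and 1842 CPM in cluster 1 and 1260 and 1605 CPM in fibroblast-like cells. Monocyte and macrophage markers were at most 46.9 CPM in these clusters, and all T and NK cell markers were at 0 in cluster 1. The part of the stress genes and the LepR+ markers in the ratios was not tested.

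**Figure D3:**
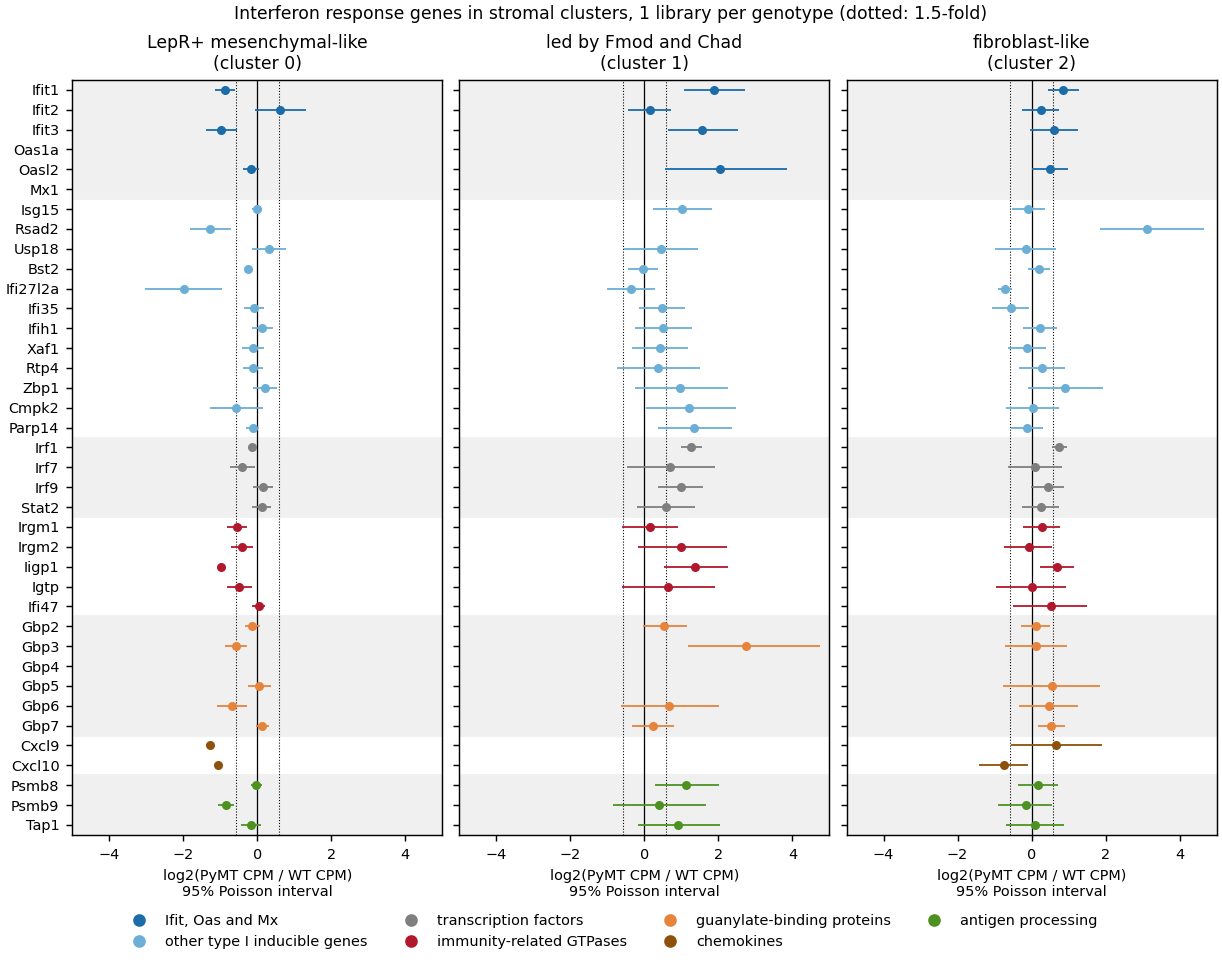
Points are log2 ratios of PyMT over WT CPM for members with at least 20 UMIs, with 95% Poisson intervals, in LepR+ mesenchymal-like cells, the cluster led by Fmod and Chad, and fibroblast-like cells; dotted lines mark 1.5-fold and colours give the role. Iigp1, Cxcl9 and Cxcl10 lie at -0.97 to -1.27 in the first panel, and 28 of 30 members lie right of 0 in the second.

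Counted by cell, at 2000 UMIs per cell, at least 3 UMIs of the type II set were held by 316 of 835 WT LepR+ cells (37.8%) and by 522 of 2076 PyMT cells (25.1%), a difference of -12.7 percentage points (95% interval -16.6 to -8.88, counting error only). For the type I set with Isg15 the shares were 4.31% and 3.90% (difference -0.41 points, interval -2.20 to 1.16). Type II RNA was held by fewer cells in cluster 1, at 0.962% and 2.09%, and among fibroblast-like cells, at 3.09% and 4.41%, WT first. Among the smaller clusters, cluster 3, led by Fcgr2b, Mrc1 and Stab2, held it in 16 of 38 WT cells (42.1%) and 34 of 92 PyMT cells (37.0%). In cluster 4, led by Cd36, it was in 4 of 4 and 7 of 11 cells, the few deep enough to count, and in cluster 5, led by Bglap, in 0 of 63 and 0 of 53. Any Iigp1 UMI was found in 589 of 977 WT LepR+ cells (60.3%) and 1248 of 2242 PyMT cells (55.7%), against 1.36% and 4.09% in cluster 1, where Iigp1 was low. Median depths were 3591 and 4422 UMIs per LepR+ cell and 4573 and 4173 UMIs per cell of cluster 1, WT first. Without thinning, at least 3 UMIs of the type II set were held by 55.8% of WT and 52.5% of PyMT LepR+ cells. Iigp1 had the most UMIs of the set in LepR+ cells, 3440 in WT and 4958 in PyMT. Cxcl10 was held by fewer cells, 171 WT (17.5%) and 292 PyMT (13.0%), against 0.680% and 1.09% in cluster 1, and 1 PyMT cell held 269 of its 2013 UMIs.

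**Figure D4:**
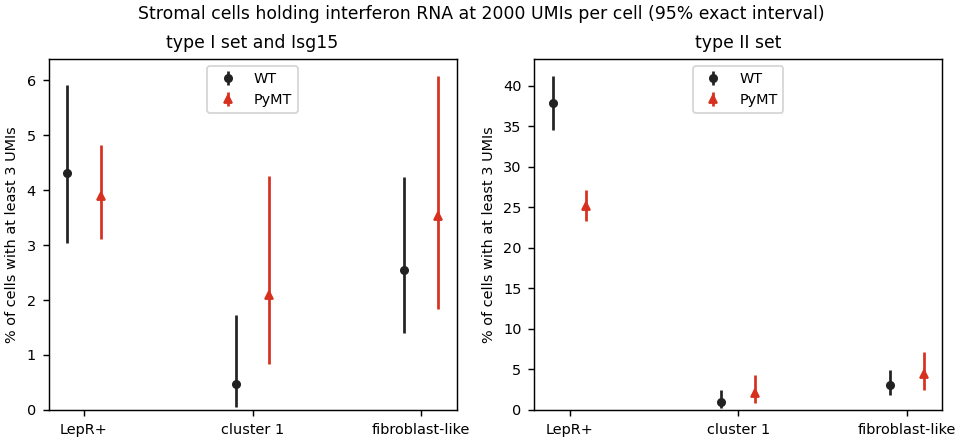
Points are the percent of cells with at least 3 UMIs of the type I set and Isg15 (left) or of the type II set (right) after thinning to 2000 UMIs, with 95% exact intervals, for WT (circles) and PyMT (triangles). The type II share of LepR+ cells is 37.8% in WT and 25.1% in PyMT, and the other shares plotted are under 5%.

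Within HSPC the members were unevenly spread over populations. Cells were clustered with the members and other pathway genes left out, and 9 clusters held at least 50 cells in every mouse. The order of populations is a description, since the clusters come from the same cells. The stem-like cluster, led by Meg3, Sult1a1 and Ltb, was named for the highest summed CPM of the 8 stem cell markers. It had the highest mean CPM for 21 of 36 members. It lay above the level of all cells in each of the 4 mice for 27 of 36 members, against 20 of 36 each for lymphoid-primed-like cells and cluster 10. At the coarser resolution of 0.3 both stem-like and lymphoid-primed-like cells had 27 of 36. Shares of all genes were not set beside these counts, so they do not show whether the order is particular to interferon genes.

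In the stem-like cells Iigp1 had 41.9 and 41.9 CPM in WT and 67.1 and 98.1 CPM in PyMT mice, against 2.28 and 2.97 and 0.210 and 1.13 CPM in the cluster led by F13a1 and Irf8. Oasl2 had 74.1, 68.3, 91.8 and 85.4 CPM in stem-like cells, WT first, and a mean of 8.82 ± 3.65 CPM (SD, n = 4) in the F13a1 cluster. Gbp2 had a mean of 73.2 ± 8.26 CPM in stem-like and 6.64 ± 2.18 CPM in F13a1-led cells. Rtp4, a receptor transporter protein, had 153.7 ± 49.7 CPM against 28.4 ± 15.4 CPM. Each of these genes was separated between the clusters in every mouse. The clusters also differed in cell cycle, with 96.6 to 99.4% of stem-like and 18.1 to 41.8% of F13a1-led cells called G1. Over all HSPC each of these genes was lower in G2M than in G1 cells of every mouse. Iigp1 had 11.2, 16.8, 10.1 and 16.0 CPM in G1 and 3.67, 7.28, 4.94 and 7.47 CPM in G2M cells, WT first. The part of cell cycle in the gap between clusters was not tested.

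Summed over each set, the stem-like level relative to all cells of the same mouse was 1.76, 1.68, 2.59 and 2.12 for the type I set and 1.43, 1.42, 1.59 and 1.67 for the type II set, WT first. In the F13a1-led cluster the type I set lay at 0.386 to 0.505 and the type II set at 0.712 to 0.825 of that level. Psmb8, Psmb9 and Gbp3 ran against this order and were highest in the F13a1-led cluster, where Psmb8 had 1557 ± 187 CPM against 878.3 ± 19.7 in stem-like cells.

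Lymphoid-primed-like cells had the highest Bst2, Ifi35, Irf7 and Mx1, and megakaryocyte-erythroid-like cells the highest Ifi47, Ifit2 and Usp18. Cluster 10, led by Hist1h2bc and Ccnb2, was highest for Cmpk2, Ifi27l2a, Ifit1, Rsad2 and Tap1. Ifit1 there had 44.9, 21.6, 23.0 and 45.4 CPM, close to its 19.8, 23.5, 35.3 and 55.4 CPM in stem-like cells, and the ranges of the mice overlapped. Stem-like cells were 18.7 and 24.2% of WT and 6.58 and 7.26% of PyMT cells. At resolution 0.3 they were 20.1 and 24.5% of WT and 18.9 and 31.9% of PyMT cells, so the lower PyMT share did not hold there. The part of cell shares in the changes over all cells was not tested. Within stem-like cells taken at resolution 0.3, 3 members were called higher in PyMT, against 3.12% of all genes. They were Oas1a (log2 change 0.69, edgeR adjusted p = 0.0404), Rtp4 (0.83, adjusted p = 0.00625) and Psmb8 (0.38, adjusted p = 0.0265). Igtp was not called (0.30, adjusted p = 0.221). This fit was chosen after seeing the data. Its cells numbered 687 and 542 in WT and 679 and 1789 in PyMT mice. The stem-like cluster described above held 640 and 535 in WT and 237 and 407 in PyMT mice. Most PyMT cells of the fit thus lay outside that cluster. The part of the population mix in these changes was not tested.

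**Figure D5:**
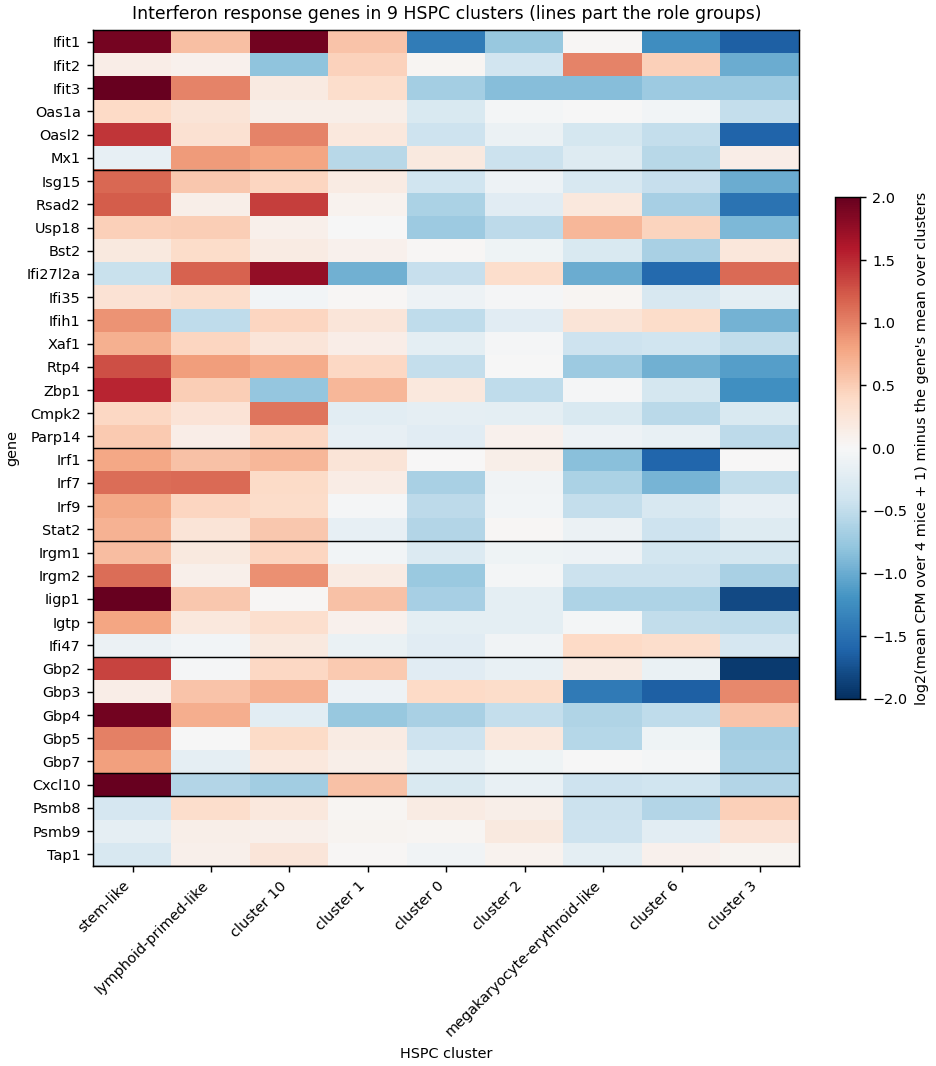
Rows are members, columns the 9 HSPC clusters with at least 50 cells in every mouse, and colour is log2(mean CPM over the 4 mice + 1) minus the gene's mean over clusters, held within -2 and 2. Red marks a higher level: 21 of 36 members are highest in the stem-like column, and 18 are lowest in the column of cluster 3, led by F13a1.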

How the data were processed

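Small-input, strand-specific kits on total RNA gave the bulk MSC libraries and droplet 3' chemistry the single-cell libraries, per the labels' protocols. Trim Galore, STAR 2.5.3a and Cell Ranger 6.0.0 with mm10 are named in the submitters' processing notes, which do not name the read counter, the strandedness of counting or the gene annotation. The deposited tables hold raw counts per gene, of reads in bulk and of UMIs per cell, per the file headers; all values were whole numbers. The deposited stromal metadata give each cell's mitochondrial share as a fraction and its cluster number, and the deposited HSPC metadata give that share as a percent, with genotype, mouse and cell cycle call.

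Groups were taken from titles and genotype labels. The members, sets and pathway list were chosen with earlier results of these data known. Bulk counts, and UMI counts summed per HSPC mouse, were fitted over all genes with edgeR 4.0.16 (R 4.3.3; TMM, filterByExpr, robust quasi-likelihood fit, Benjamini-Hochberg threshold 0.05). CPM are TMM-normalised for single genes in bulk and HSPC totals, and plain for marker sums, stromal clusters and HSPC clusters. Exonic length of the annotated gene gave CPM per kilobase. The fit was tested on simulated counts. The stromal filter was 500 or more genes and a mitochondrial share under 10%, and the authors' clusters were used. HSPC were clustered with scanpy 1.11.5 and leidenalg 0.10.2 (resolution 0.6, from 20 neighbours in 30 components of 2000 variable genes), and populations named from listed markers. Doublets were not removed. Values in every library are given for members called in a fit, past 1.5-fold in a stromal cluster, or the most or least abundant of their role, and the rest by range and count. DESeq2 1.42.0, RLE factors, no low-count filter, a replicate block, left-out libraries, thinning and G1 cells only were the alternatives; HSPC stem-like cells only, stroma without the top cell of each gene, and a lower cell minimum were added after seeing the data.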

Additional observations from a re-analysis of the deposited data

Results flagged for a closer look

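In 5 of 74 groups of 4 bulk libraries 1 library lay far from the others by Dixon's criterion, which chance alone gives in about 1 in 20 groups. Irgm1 was 87.8 CPM in the fourth tumour-free library, with the next at 212.1 CPM. Gbp4 and Gbp5 were 21.5 and 114.4 CPM in the third tumour-free library, with the next at 8.18 and 52.6 CPM. Mx1 and Psmb8 were 12.5 and 45.02 CPM in the second Py230 library, with the next at 8.13 and 39.8 CPM.

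Members also moved in opposite directions between stromal clusters, with 1 library per genotype, and these differences were not tested. Ifit1 had a log2 ratio of PyMT over WT that was 2.73 higher in the cluster led by Fmod and Chad than in LepR+ cells, and 1.72 higher in fibroblast-like cells. Iigp1 differed in the same way by 2.34 and 1.66, and Irf1 by 1.42 and 0.90. Ifit3 and Gbp3 differed by 2.52 and 3.32 between the cluster led by Fmod and Chad and LepR+ cells, and Rsad2 by 4.39 between fibroblast-like and LepR+ cells. For Rsad2, 1 WT LepR+ cell held 35 of 51 UMIs and 1 PyMT fibroblast-like cell 12 of 33, and the difference was 2.97 without the top cells.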

How the results depend on the processing

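With the replicate block 3 interferon members were lower in MSC, against 6 without it, and 237 genes were lower and 176 higher in all. Deviations from the group means correlated at -0.326 to 0.00025 between libraries of equal number in the titles. With so few libraries this cannot show whether equal numbers share an animal or batch, which the labels do not say. Leaving out each MSC library gave 1 to 8 members lower, 230 to 426 genes lower and 134 to 304 genes higher. No low-count filter gave 9 members lower, of which 4 were shared with the 6. In HSPC, DESeq2 called 4 members higher, with 161 genes lower and 467 higher. G1 cells only gave 0 members higher. Stem-like cells only, taken at resolution 0.3, gave 3, with 155 genes lower and 312 higher. Leaving out each HSPC mouse gave 0 to 2 members lower and 1 to 12 higher, and 84 to 797 genes lower and 100 to 1135 higher. Thinning stromal cells to 1500 UMIs gave 5 members higher in the cluster led by Fmod and Chad and 0 lower in fibroblast-like cells. Only members that kept at least 20 UMIs were counted. In fibroblast-like cells thinning turned the log2 ratio of Ifi35 from -0.56 to 0.87. It also turned Igtp in the cluster led by Fmod and Chad from 0.63 to -0.32 and, in fibroblast-like cells, Ifit3 from 0.60 to -0.31 and Cxcl9 from 0.67 to -0.05. Clustering HSPC at resolution 0.3 moved the stem-like level of the type II set, relative to that of all cells, from 1.53 to 1.38, and the lymphoid-primed-like levels from 1.21 to 1.64 for the type I and from 1.04 to 1.19 for the type II set. In LepR+ cells the log2 ratio of Rsad2 in stromal cluster 0 turned from -1.26 to 0.0856 without its top cell. The causes were not tested, apart from that cell. Thinning leaves few UMIs for low members, so their ratios are limited by depth.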

Other observations

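Cells of HSPC cluster 7, led by Jchain, Socs3 and Pim1 and with Rtp4 among its top genes, were 2.98 and 1.40% of WT and 9.41 and 22.9% of PyMT cells. The second WT mouse held 31 such cells, too few for the comparison of populations. The type I set lay at 1.49, 0.975, 1.90 and 1.62 times the level of all cells of the same mouse in this cluster, WT first, and the type II set at 0.941, 0.990, 1.26 and 1.28 times. Its median depth was 4910 and 5314 UMIs per cell in WT and 3583 and 2842 in PyMT mice.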
